A study of Mus musculus with 6 samples.

Results

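Small leucine-rich proteoglycans are secreted matrix proteins built from leucine-rich repeats, most of which carry glycosaminoglycan chains. The 9 genes described here were taken by name, and earlier results of these data were known when they were chosen. Dcn, Bgn and Aspn belong to class I, Lum, Fmod, Prelp and Omd to class II, Ogn to class III and Podn to class V. They are 9 of the 57010 genes in the deposited table, and all 9 were among the 13542 genes tested, those at 1 TPM or more in 3 or more libraries. RNA of mouse heart ventricles at postnatal day 14 was sequenced in 3 control and 3 Cend1-KO libraries, numbered 1, 3 and 4 by their titles in both groups. The column names call the controls WT, and the labels name no strain, sex or allele, nor whether the deletion is limited to a cell type. Whether the libraries are separate animals is not stated either, so a p-value here measures the spread between libraries, which may be technical. The series title speaks of heart regeneration and of Cend1, a neuronal cell cycle exit gene, as suppressed by the histone demethylase LSD1, and the comparison asks what differs in the ventricle without it.

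In the heart these proteins are made mainly by fibroblasts and other stromal cells. Their curved repeat domain binds collagen and governs how collagen fibrils grow and pack side by side, and several members also bind growth factors of the TGF-β family. Class I members carry chondroitin or dermatan sulphate, except asporin, whose aspartate-rich end lacks the usual attachment site, and several class II members carry keratan sulphate.

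Values are the authors' TPM (a transcript level scaled by length and by library total), so levels can be compared between genes, but sequencing depth is unknown. A difference is the Cend1-KO mean less the control mean of log2(TPM + 1), a scale that shrinks the changes of low genes, and a gene is called where the limma adjusted p over all tested genes is under 0.05. Cend1 itself measured 1.44, 1.99 and 1.54 TPM in controls 1, 3 and 4, and each Cend1-KO library listed it at 0. Genes of the mitochondrial genome took 17.9% to 22.9% of TPM in 5 libraries and 34.9% in Cend1-KO replicate 3. Nuclear copies of mitochondrial genes took a further 8.08% to 10.3% in those 5 libraries and 17.3% in Cend1-KO replicate 3. Both lower the TPM of other genes there. Hemoglobin genes took 0.138% to 0.445% in controls and 1.06% to 2.44% in Cend1-KO. Results are therefore also given "when scaled", that is, with each library divided by its median-of-ratios factor (0.715 to 1.23), which moved the median difference of all tested genes from -0.11 to -0.0045. Lung surfactant transcripts were found in Cend1-KO replicates 1 and 4, where Sftpc was at 437.5 and 702.9 TPM, against 0.107 in replicate 3 and 0 in every control. Xist, an X-linked RNA, was at 16.4 TPM in control replicate 4 and 7.37 TPM in Cend1-KO replicate 1. It was at most 0.0555 TPM in every other library. The labels name no sex, and calls with Xist as a covariate are given in the closing section. Of the marker lists examined, that of cardiomyocytes had the highest summed TPM in every library.

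Omd, Aspn and Lum rose in Cend1-KO ventricles, by 5.59, 3.16 and 2.44 times in the ratio of group means. None of the other 6 members passed the test as deposited, and none of the 9 fell. Calls higher made 0.790% of all tested genes and calls lower 0.908%. At an unadjusted limma p under 0.05 stood 6 of the 9 members and 2080 of all 13542 tested genes, the latter in either direction. Counts of the gene lists below are to be read beside these shares, and a count near its share says nothing particular of a list. When scaled 7 of 9 members were called higher, all but Fmod and Podn, against 6.12% of all tested genes called higher and 4.29% called lower. In 6 of 9 members every Cend1-KO library lay above every control as deposited, as it did in 5.67% of all tested genes. Since the members were chosen with earlier results of these data known, their counts beside these shares are a description. The median difference of the 9 members was 1.11 as deposited and 1.24 when scaled. Without the filter on low genes limma called 0 of 30114 genes, these 3 included, with 6 of the 9 members and 2894 genes in all at an unadjusted p under 0.05.

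**Figure D1:**
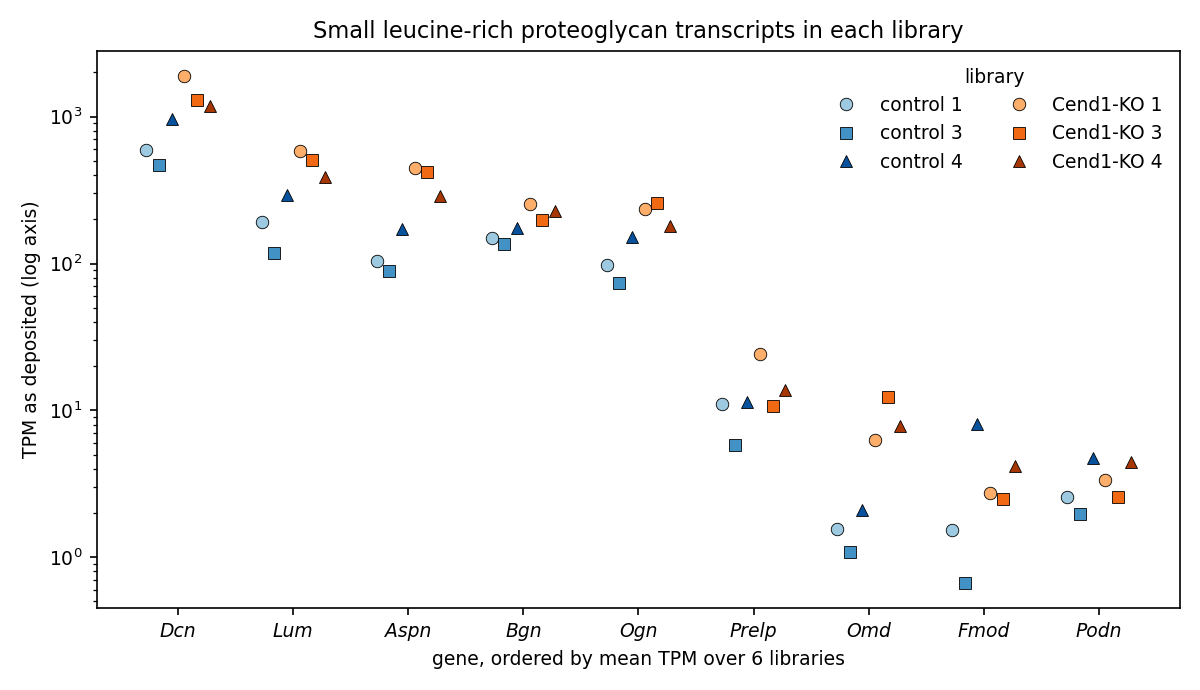
TPM as deposited (log axis) of the 9 members in each library, with controls in blue and Cend1-KO in orange. For Dcn, Lum, Aspn, Bgn, Ogn and Omd all 3 Cend1-KO points lie above all 3 control points, while for Prelp, Fmod and Podn the groups overlap.

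The summed level of the 9 members was 1155, 894.3 and 1784 TPM in controls 1, 3 and 4. It was 3447, 2713 and 2289 TPM in Cend1-KO libraries 1, 3 and 4. The groups did not overlap, and the ratio of their means was 2.20. Within both groups the sums were far apart, with control replicate 4 the control nearest to the Cend1-KO libraries. Relative to the control mean, all 9 members lay higher in control replicate 4 and all 9 lower in control replicate 3, by a median of 0.55 and -0.46 on the log2(TPM + 1) scale. In Cend1-KO libraries 1, 3 and 4 the median of the 9 members was 1.33, 1.02 and 0.80 above the control mean, and 1.10, 1.56 and 0.88 when scaled.

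Decorin (Dcn), the class I member that coats collagen fibrils and binds TGF-β, was the most abundant in all 6 libraries and made 48.1% to 54.9% of the summed TPM. It was at 592.9, 468.4 and 968.2 TPM in controls 1, 3 and 4. It was at 1891, 1306 and 1176 TPM in Cend1-KO libraries 1, 3 and 4. Every Cend1-KO library was above every control, yet the gap between Cend1-KO replicate 4 and control replicate 4 was smaller than the spread among the controls. The difference was 1.14 (SE 0.28) with limma adjusted p = 0.0591, short of a call, and 1.27 with adjusted p = 0.0158 when scaled.

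Asporin (Aspn), the class I member that in mouse and human binds TGF-β and collagen, was at 104.5, 88.8 and 173.0 TPM in controls 1, 3 and 4. It was at 448.1, 418.2 and 290.3 TPM in Cend1-KO libraries 1, 3 and 4. The groups were well apart: the lowest Cend1-KO library was above the highest control by more than the spread among the controls. Aspn rose from 122.1 ± 44.8 to 385.5 ± 83.9 TPM (SD, n = 3 each), a difference of 1.69 (SE 0.28) with limma adjusted p = 0.00839. It stayed called whichever library was left out, with adjusted p between 7.65e-05 and 0.0459. Its share of the family's summed TPM was 9.05% to 9.93% in controls and 12.7% to 15.4% in Cend1-KO, so its rank moved from the fourth place in every control to the third in every Cend1-KO library.

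Biglycan (Bgn), the X-linked class I member that can act on Toll-like receptors when released from the matrix, was at 150.4, 136.9 and 173.7 TPM in controls 1, 3 and 4. It was at 256.0, 197.7 and 226.8 TPM in Cend1-KO libraries 1, 3 and 4. The groups did not overlap, but the shift was smaller than that of the other abundant members. The difference was 0.56 (SE 0.22) with limma adjusted p = 0.242, and 0.69 with adjusted p = 0.0297 when scaled. Without both libraries that hold lung transcripts it was 0.37. Its share of the family's sum was 9.74% to 15.3% in controls and 7.29% to 9.91% in Cend1-KO.

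Lumican (Lum), the class II keratan sulphate proteoglycan known for the fibril order of the cornea, was at 192.8, 117.4 and 292.3 TPM in controls 1, 3 and 4. It was at 580.8, 504.0 and 386.4 TPM in Cend1-KO libraries 1, 3 and 4. All 3 Cend1-KO libraries were above all 3 controls, with control replicate 4 the nearest. Lum rose by 1.36 (SE 0.30), with limma adjusted p = 0.0372 and 0.0156 when scaled. The call was lost when either control replicate 1 or 3 (adjusted p = 0.0664 and 0.198) or Cend1-KO replicate 3 (0.219) was left out.

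Osteomodulin (Omd), the class II member first known from bone and dentine matrix, showed the largest ratio of the 9 members at a low level. It was at 1.56, 1.08 and 2.11 TPM in controls 1, 3 and 4. It was at 6.32, 12.4 and 7.81 TPM in Cend1-KO libraries 1, 3 and 4. The lowest Cend1-KO library was well above the highest control, and Cend1-KO replicate 3 was the highest of all. Omd rose from 1.58 ± 0.513 to 8.85 ± 3.18 TPM (SD, n = 3 each), a difference of 1.90 (SE 0.27) with limma adjusted p = 0.00398, and stayed called whichever library was left out (adjusted p between 1.23e-04 and 0.0164). Of the bone markers looked at beside it, Ibsp and Sp7 were listed at 0 in every library and Bglap was at most 0.195 TPM. Of the 6 bone markers 2 were tested, Spp1 and 1 other. That other marker was lower in every Cend1-KO library, as were 18.6% of all tested genes. It was not called as deposited and was called lower when scaled, as were 4.29% of all tested genes. Spp1 (osteopontin), which macrophages and injured heart tissue also make, rose from 6.22 ± 3.14 to 51.3 ± 31.6 TPM (SD, n = 3 each; limma adjusted p = 0.00839), a call lost without Cend1-KO replicate 1 or 3 (adjusted p = 0.113 and 0.0681).

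Prelp, the class II member that links collagen to heparan sulphate of basement membranes, was at 11.1, 5.77 and 11.4 TPM in controls 1, 3 and 4. It was at 24.2, 10.7 and 13.8 TPM in Cend1-KO libraries 1, 3 and 4. The groups overlapped as deposited, since Cend1-KO replicate 3 was below both higher controls. The difference was 0.70 (SE 0.33) with limma adjusted p = 0.325, and 0.82 with adjusted p = 0.0394 when scaled. It was 0.39 without Cend1-KO replicate 1, 0.42 without control replicate 3 and 0.22 without both libraries that hold lung transcripts. An antisense gene, Gm15851, overlaps 350 of Prelp's 3615 exonic bases and was listed at 0, and since the library kit is not stated to mark strand, reads of the pair could not be told apart.

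Osteoglycin (Ogn), the class III member also called mimecan, which binds collagen and has been tied to heart size in rat, was at 97.6, 73.3 and 150.5 TPM in controls 1, 3 and 4. It was at 234.5, 259.3 and 179.5 TPM in Cend1-KO libraries 1, 3 and 4. Every Cend1-KO library was above every control, again with control replicate 4 nearest to Cend1-KO replicate 4. The difference was 1.11 (SE 0.27) with limma adjusted p = 0.0605, and 1.24 with adjusted p = 0.0290 when scaled.

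Fibromodulin (Fmod) and podocan (Podn) did not separate the groups. Fmod, the class II member that guides collagen cross-linking, was at 1.54, 0.673 and 8.06 TPM in controls 1, 3 and 4 and at 2.74, 2.50 and 4.20 TPM in Cend1-KO libraries 1, 3 and 4. Podn, the class V member that restrains smooth muscle growth in mouse, was at 2.57, 1.97 and 4.74 TPM in the controls and at 3.36, 2.58 and 4.42 TPM in Cend1-KO, in the same replicate order. For both genes the highest library as deposited was control replicate 4 and the groups overlapped. When scaled that held for Fmod, while Podn was highest in Cend1-KO replicate 4, at 4.48 against 4.21 in control replicate 4. The differences were 0.27 (SE 0.58) and 0.16 (SE 0.28), with limma adjusted p = 0.865 and 0.827, and without control replicate 3 they were -0.23 and -0.044. Without control replicate 4 the difference of Fmod was 0.99, with adjusted p = 0.0779.

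**Figure D2:**
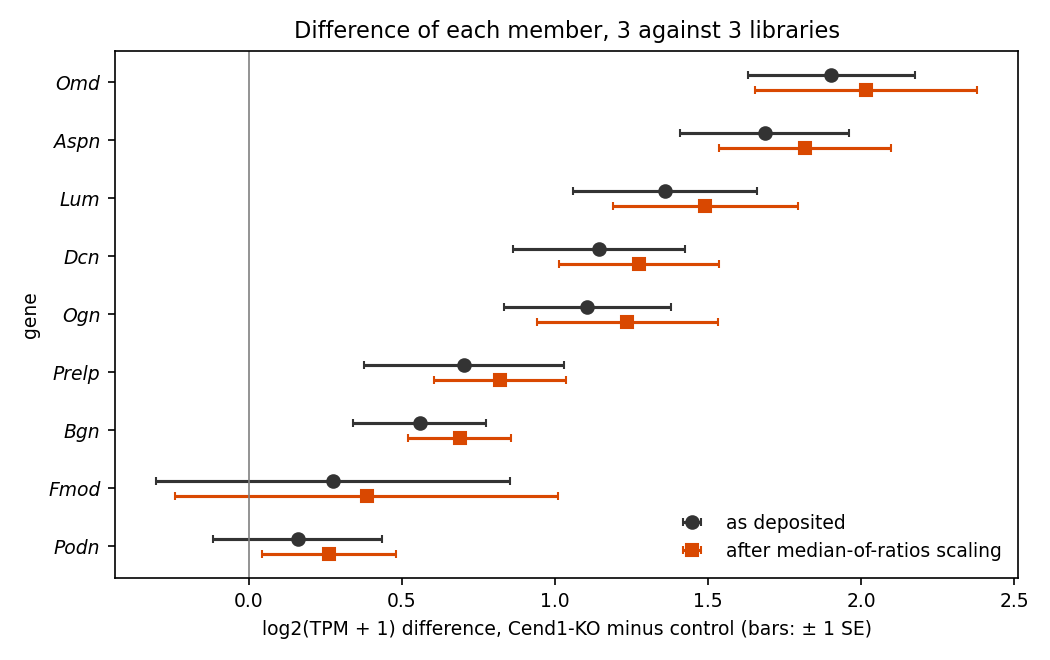
Difference of each member on the log2(TPM + 1) scale, Cend1-KO minus control, with bars of 1 SE, as deposited (circles) and after median-of-ratios scaling (squares). Omd, Aspn and Lum lie highest, at 1.90, 1.69 and 1.36 as deposited, and the bars of Fmod span 0 on both scales.

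Control replicate 4 also stood apart in mesothelial markers. The 8 genes of that list summed to 32.0, 23.9 and 158.0 TPM in controls 1, 3 and 4 and to 63.9, 30.7 and 59.1 TPM in Cend1-KO libraries 1, 3 and 4. Msln, the mesothelial surface protein mesothelin, was at 38.8 TPM and Upk3b at 37.3 TPM in control replicate 4, against at most 12.3 and 9.50 TPM in the other libraries. Of these 8 markers 0 were called by limma, and 0 had an unadjusted p under 0.05 or were called when scaled. As deposited, Fmod and Podn were thus highest in the library with the most mesothelial transcript, and when scaled only Fmod was. The part of mesothelial tissue in the values of Fmod and Podn was not tested.

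**Figure D3:**
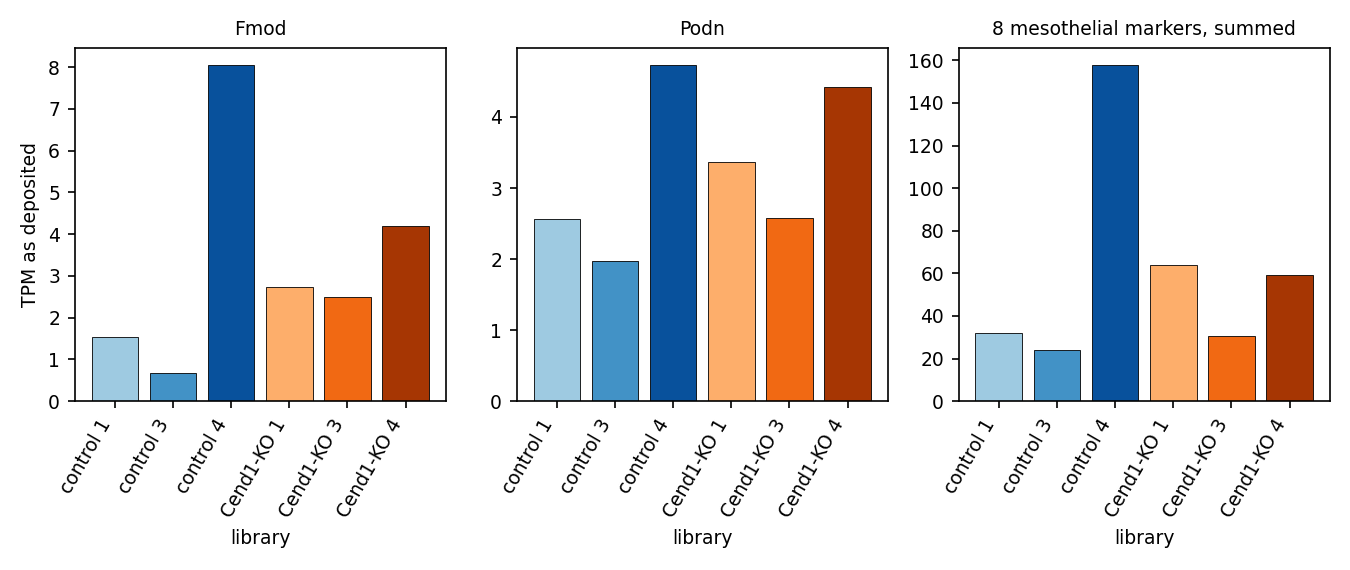
TPM as deposited of Fmod, Podn and the sum of 8 mesothelial markers in each library, on linear axes that start at 0. Control replicate 4 is the highest library in all 3 panels, at 8.06, 4.74 and 158.0 TPM.

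By mean TPM over all 6 libraries the order was Dcn, Lum, Aspn, Bgn, Ogn, Prelp, Omd, Fmod and Podn. Dcn was above Lum, Lum above Aspn and Ogn above Prelp in all 6 libraries. Aspn was above Bgn in the 3 Cend1-KO libraries and below it in the 3 controls. The ranges of Lum and Aspn, and of Bgn and Ogn, overlapped in both groups. Prelp exceeded Omd in 5 of 6 libraries, the exception being Cend1-KO replicate 3. Omd was below Podn in all 3 controls and above both Podn and Fmod in all 3 Cend1-KO libraries, and its control mean of 1.58 TPM was the lowest of the 9. The ranges of Fmod and Podn overlapped in both groups, and Fmod was above Podn in 1 library only, so these neighbours were not separated by their spread.

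Aspn, Omd and Ogn lie side by side on mouse chromosome 13, in 1 direction, together with Ecm2, a related leucine-rich matrix gene that was not among the 9. On GRCm38, in GENCODE M21, Aspn (ENSMUSG00000021388) spans chr13:49544443-49567565, Omd (ENSMUSG00000048368) chr13:49582462-49592822 and Ogn (ENSMUSG00000021390) chr13:49608046-49624501, all on the plus strand. Ecm2 to Ogn covers 119.7 kb. Ecm2 was at 9.73, 8.90 and 11.6 TPM in controls 1, 3 and 4 and at 23.0, 18.6 and 14.4 TPM in Cend1-KO libraries 1, 3 and 4, again with no overlap (limma difference 0.81, adjusted p = 0.144, and 0.0156 when scaled). All 4 genes lie inside Cenpp, a centromere protein gene on the opposite strand. Cenpp was at 10.1, 15.1 and 15.1 TPM in the controls and at 7.46, 6.89 and 5.20 TPM in Cend1-KO, in the same replicate order, so it lay lower in every Cend1-KO library (limma difference -0.93, adjusted p = 0.0979, and 0.0460 when scaled). Cenpp shares 7 exonic bases with Aspn and 0 with Omd and Ogn. The flanking genes Ippk and Nol8 differed by -0.26 and -0.11 (limma adjusted p = 0.622 and 0.866).

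**Figure D4:**
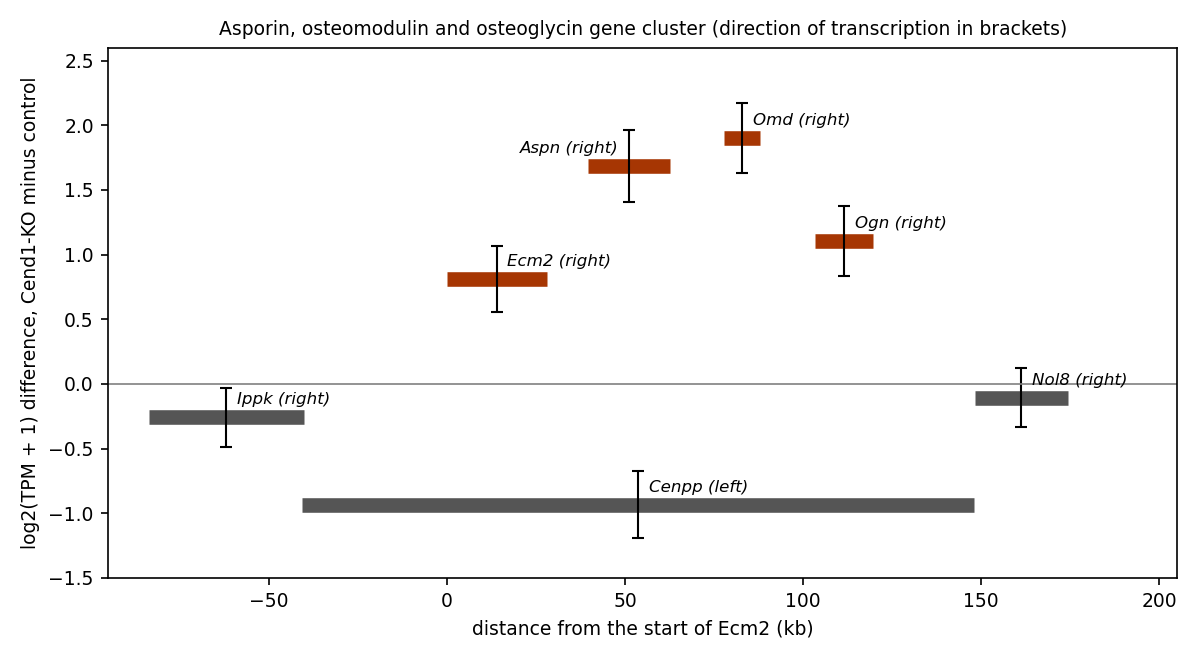
Difference on the log2(TPM + 1) scale, Cend1-KO minus control as deposited (bars of 1 SE), of the genes in and beside the Aspn, Omd and Ogn cluster, drawn at their distance from the start of Ecm2 in kb. The 4 leucine-rich genes lie between 0.81 and 1.90, while Cenpp, which spans them on the other strand, is at -0.93.

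The promoters of Aspn, Omd and Ogn are shown because these members lie together and were all higher in every Cend1-KO library. That of Bgn is shown because it had the smallest difference among the 5 most abundant members. Each sequence runs from 250 bases before to 50 after the start of the gene in RefSeq on GRCm38.p6, 5′ to 3′ on the gene's strand. The windows are chr13:49544193-49544492 (plus strand) for Aspn, chr13:49582212-49582511 (plus strand) for Omd, chr13:49607765-49608064 (plus strand) for Ogn and chrX:73483351-73483650 (plus strand) for Bgn. Capitals mark matches, on either strand, to any of 5 motifs searched: TATAAA of the TATA box, TGANTCA of AP-1, GGGCGG of the GC box, CAGACA of SMAD elements and GGAATG of TEAD elements.
Aspn: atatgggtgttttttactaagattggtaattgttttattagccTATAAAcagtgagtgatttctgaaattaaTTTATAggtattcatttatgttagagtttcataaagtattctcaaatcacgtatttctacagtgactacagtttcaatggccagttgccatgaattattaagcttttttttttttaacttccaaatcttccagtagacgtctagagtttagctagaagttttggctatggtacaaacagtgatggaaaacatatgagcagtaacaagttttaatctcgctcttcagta
Omd: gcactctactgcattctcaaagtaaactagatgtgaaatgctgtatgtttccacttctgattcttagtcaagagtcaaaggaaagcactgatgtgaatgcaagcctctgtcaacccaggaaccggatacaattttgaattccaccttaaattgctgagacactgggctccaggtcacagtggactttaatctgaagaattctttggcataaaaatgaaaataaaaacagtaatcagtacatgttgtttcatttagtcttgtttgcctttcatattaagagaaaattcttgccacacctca
Ogn: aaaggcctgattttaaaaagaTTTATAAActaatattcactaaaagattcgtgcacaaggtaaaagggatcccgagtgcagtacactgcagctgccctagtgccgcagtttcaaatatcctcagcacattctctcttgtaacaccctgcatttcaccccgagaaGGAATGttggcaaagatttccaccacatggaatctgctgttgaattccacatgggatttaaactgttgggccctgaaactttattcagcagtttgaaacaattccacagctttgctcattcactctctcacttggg
Bgn: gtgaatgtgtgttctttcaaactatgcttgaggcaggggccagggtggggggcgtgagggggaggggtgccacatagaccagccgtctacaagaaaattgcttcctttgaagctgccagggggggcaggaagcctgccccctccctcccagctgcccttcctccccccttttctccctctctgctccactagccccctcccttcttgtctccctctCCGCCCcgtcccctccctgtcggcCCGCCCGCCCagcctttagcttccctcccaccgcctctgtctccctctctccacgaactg
The table held promoters for 7 of the 9 members, with none for Dcn and Lum. The Aspn window, 31.0% G and C, holds TATAAA at -207 and, on the other strand, at -178 from the start. The Omd window, 37.7% G and C, holds none of the 5 motifs. The Ogn window, 42.3% G and C, holds overlapping matches to TATAAA on both strands at -229 and -227, and GGAATG at -86. The Bgn window, 63.7% G and C, holds GGGCGG on the other strand at -34, -10 and -6, where the last 2 overlap. Over all 32851 promoters of the table the median was 52.7% G and C, so Aspn, Omd and Ogn lay below it and Bgn above it. Of the windows not printed, Ecm2 was at 41.0%, Fmod at 51.0%, Prelp at 55.3% and Podn at 77.0% and 63.0%. Among all promoters 13.6% hold TATAAA, 7.81% TGANTCA, 35.7% GGGCGG, 21.04% CAGACA and 14.7% GGAATG on either strand. These matches describe the letters of the windows only.

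Dcn (chr10:97479609-97518143) and Lum (chr10:97565128-97572703) are neighbours on chromosome 10, 47.0 kb apart, and are followed by keratocan (Kera) and epiphycan (Epyc), class II and class III members of cornea and cartilage. Kera was at most 0.156 TPM in any library. Epyc was at 0.0632, 0.0195 and 0.0583 TPM in controls 1, 3 and 4 and at 0.521, 0.387 and 0.394 TPM in Cend1-KO libraries 1, 3 and 4, below the level tested. Prelp (chr1:133910304-133921414) and Fmod (chr1:134037254-134048277) lie 115.8 kb apart on chromosome 1, with opticin (Optc) beside Prelp at no more than 0.12 TPM. Of 9 further family genes 3 reached the tested level (Ecm2, Chadl and Tsku), and limma called 0 of them, with 1, Ecm2, at an unadjusted p under 0.05 and called when scaled.

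Collagens are the main partners of these proteins. Of 15 genes of fibrillar and fibril-associated collagens 12 were tested and limma called 0 as deposited. At an unadjusted limma p under 0.05 were 6 of them, all higher, against 2080 of all 13542 tested genes in either direction. When scaled 7 were called higher, against 6.12% of all tested genes. The median difference was 0.57 for the collagens and 1.11 for the 9 members. Col1a1, the main chain of type I collagen, was at 94.7, 65.7 and 119.9 TPM in controls 1, 3 and 4 and at 90.6, 76.1 and 122.9 TPM in Cend1-KO libraries 1, 3 and 4, nearly the same range in both groups. Col3a1 was at 439.9 ± 113.0 and 677.4 ± 153.6 TPM (SD, n = 3 each; limma adjusted p = 0.260, and 0.0344 when scaled), and Col5a2, which sets fibril diameter from within, had adjusted p = 0.155, and 0.0152 when scaled.

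Set against the summed TPM of Col1a1, Col1a2 and Col3a1 in the same library, the 9 members together were at 1.78, 1.82 and 2.09 in controls 1, 3 and 4. The same ratio was 3.11, 3.72 and 2.19 in Cend1-KO libraries 1, 3 and 4. The groups did not overlap, but Cend1-KO replicate 4 was close to control replicate 4. Gene by gene, the ratio lay higher in every Cend1-KO library for 3 of 9 members, Lum, Omd and Aspn, whose ratios of group means were 1.81, 4.27 and 2.31. For Bgn the ratio of means was 1.01. Against Pdgfra, a receptor that marks fibroblasts, the groups were apart for 2 members, Omd and Aspn, with ratios of means of 3.03 and 1.61, while Dcn was at 1.08 and Lum at 1.26. These ratios carry no test.

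**Figure D5:**
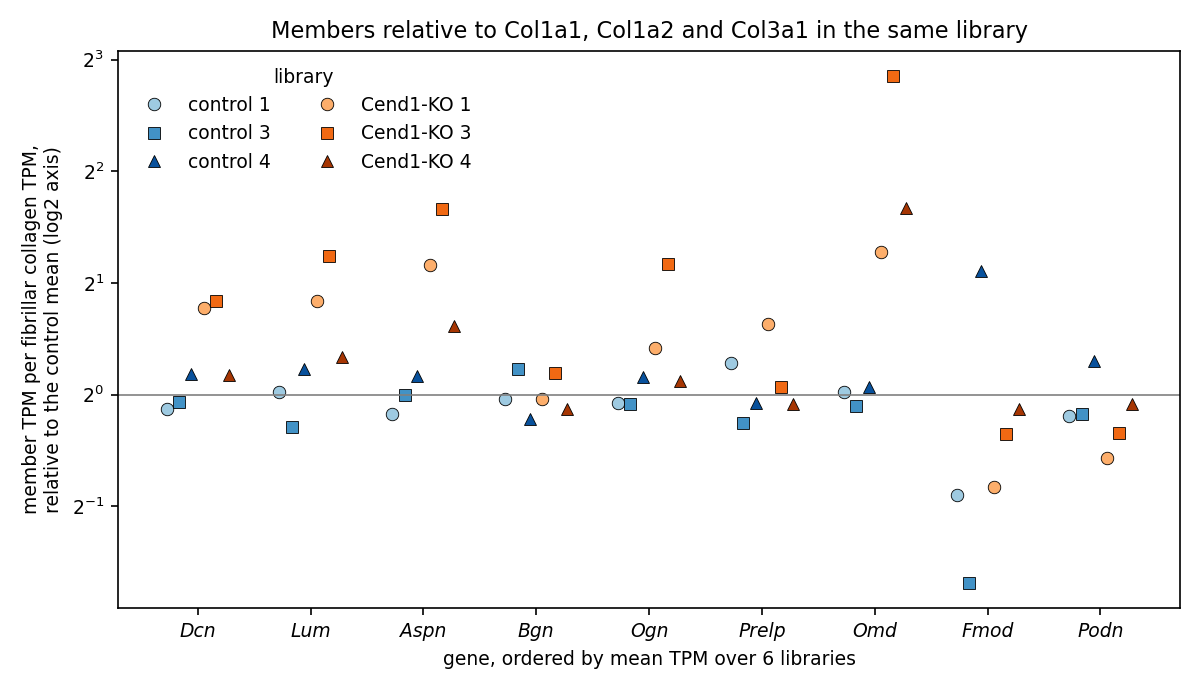
TPM of each member per summed TPM of Col1a1, Col1a2 and Col3a1 in the same library, divided by the control mean (log2 axis, grey line at 1). The Cend1-KO points lie above all controls for Lum, Aspn and Omd, and the groups overlap for the other 6 members.

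Fibroblast markers were examined beside the family. Of 13 markers 3 rose (Dpep1, Ly6a and Scara5), 8 were higher at an unadjusted limma p under 0.05, and 7 were called higher when scaled. The difference was positive for 12 of the 13, as for 37.6% of all tested genes. The median difference was 0.91 for the markers and 1.11 for the 9 members. The summed level of the 13 markers was 700.0 to 1033 TPM in controls and 1103 to 2311 TPM in Cend1-KO. Ly6a and Scara5 lost their calls without control replicate 3 (limma adjusted p = 0.0647 and 0.103), Ly6a also without Cend1-KO replicate 3 (0.147) and Scara5 also without control replicate 1 (0.0534). Tcf21, a transcription factor of cardiac fibroblasts, was at 39.4 ± 4.22 and 39.2 ± 14.6 TPM (SD, n = 3 each; limma adjusted p = 0.937). In bulk tissue, more cells of a type and more RNA per cell cannot be told apart, and the part of fibroblast number in the family's values was not tested.

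Markers of other cell types gave the following values. The 10 cardiomyocyte markers summed to 58043 to 65127 TPM in controls and 32423 to 48844 TPM in Cend1-KO. Every Cend1-KO library was below every control for 8 of the 10, as for 18.6% of all tested genes, though limma called 0 of them, with 7 lower at an unadjusted p under 0.05 and 0 called when scaled. Of 7 adipocyte markers 4 were tested and 3 rose (Cfd, Adipoq and Retn). Cfd and Retn reached the tested level only through the Cend1-KO libraries, where they are high, so their calls were bound to that choice. Among the controls Adipoq reached 1 TPM in replicate 4 alone, so its passing of the filter also rested on the Cend1-KO libraries. Adipoq was at 0.0715, 0 and 1.27 TPM in controls 1, 3 and 4 and at 5.25, 4.37 and 5.15 TPM in Cend1-KO libraries 1, 3 and 4. The summed TPM of the adipocyte list was 1236 to 1519 in controls and 1954 to 4024 in Cend1-KO. This sum is nearly all Fabp4, so it is not read as a level of fat cells. Like the endothelial sum, it was highest in Cend1-KO replicate 1. The part of fat tissue in the family's values was not tested. The 8 lung epithelial markers summed to 1.01 to 1.30 TPM in controls and to 505.2, 0.580 and 830.6 TPM in Cend1-KO libraries 1, 3 and 4. In Cend1-KO replicate 3, the library with the lowest sum, Dcn, Lum, Aspn, Bgn, Ogn and Omd lay above every control as deposited. Prelp, Fmod and Podn did not, at 10.7, 2.50 and 2.58 TPM. The part of lung tissue in the family's values was not tested. Of 11 markers of valve, tendon and cartilage 4 were tested and limma called 0, with 1, Cilp, higher at an unadjusted p under 0.05 and called when scaled. Tnmd was at most 1.08, Chad 0.0745 and Col2a1 0.0184 TPM. Of 6 erythroid markers 3 rose, with sums of 1389 to 4474 TPM in controls and 10633 to 24498 TPM in Cend1-KO. Of 8 endothelial and 8 macrophage markers limma called 0, with 3 of each list higher at an unadjusted p under 0.05 and 3 of each called when scaled. The endothelial sum was highest in Cend1-KO replicate 1, at 960.1 TPM, which was also the library with the highest summed TPM of the 9 members. The part of these cell types in the family's values was not tested.

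Enzymes of the cell build the sugar chains. In the list for the linker and for chondroitin or dermatan sulphate 18 of 23 genes were tested and limma called 0, with 2 higher at an unadjusted p under 0.05 and 4 called higher when scaled. Those 4 were Dsel and Dse, epimerases that make dermatan from chondroitin sulphate, Chst7, a chondroitin sulphotransferase, and Csgalnact1, which starts the chondroitin chain. Dsel was at 3.28 ± 0.951 and 7.18 ± 3.10 TPM (SD, n = 3 each; limma adjusted p = 0.155, and 0.00772 when scaled). Of 10 keratan sulphate genes 6 were tested and 0 called, with 0 at an unadjusted p under 0.05 and 1, B4galt4, called higher when scaled. Of 25 genes that process and cross-link collagen 20 were tested and 0 called, with 2, Lox and Loxl2, at an unadjusted p under 0.05 and 6 called higher when scaled. Among all 13542 tested genes 2080 had an unadjusted limma p under 0.05, in either direction.

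Among 16 tested of 21 matrix proteases and inhibitors 3 rose and 0 fell, and 7 were called higher when scaled. Timp4, the metalloproteinase inhibitor most typical of the heart, was at 1.24, 1.74 and 1.25 TPM in controls 1, 3 and 4 and at 13.991, 7.78 and 7.60 TPM in Cend1-KO libraries 1, 3 and 4. The groups were far apart, and Timp4 rose by 2.12 (SE 0.26), with limma adjusted p = 0.00144 and a call in all 6 fits that left out 1 library. Htra3, a secreted serine protease that can cleave decorin and biglycan, rose from 36.9 ± 4.72 to 106.3 ± 45.2 TPM (SD, n = 3 each; limma adjusted p = 0.0240, and 0.103 without control replicate 3). Adamts5, a protease of large proteoglycans, rose from 3.74 ± 1.30 to 11.4 ± 5.23 TPM (SD, n = 3 each; limma adjusted p = 0.0466), a call lost without control replicate 1 or 3 or Cend1-KO replicate 4 (adjusted p = 0.147, 0.214 and 0.0641).

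Of 24 growth factors and receptors that the family binds 20 were tested and 1 rose, Ccn2, a matrix-associated growth factor, with limma adjusted p = 0.0196, and 0.0693 and 0.103 without control replicates 1 and 3. When scaled 6 were called higher and 1 lower, Ccn4, a matricellular protein that binds decorin and biglycan (1.71 ± 0.128 and 0.845 ± 0.212 TPM, SD, n = 3 each; limma adjusted p = 0.170, and 0.0356 when scaled). Tgfbr2, the type II TGF-β receptor, and Tlr4, a receptor for soluble biglycan, had adjusted p = 0.240 and 0.257, and 0.00933 and 0.0206 when scaled. Of 24 other proteoglycans 16 were tested and 1 rose, Spock2 (testican-2), from 1.44 ± 0.365 to 5.78 ± 1.22 TPM (SD, n = 3 each; limma adjusted p = 0.00762, and 0.0557 without control replicate 3), and 6 were called higher when scaled. Serglycin (Srgn) and versican (Vcan) had adjusted p = 0.0729 and 0.198, and 0.0127 and 0.0223 when scaled.

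Leaving out the members themselves, the 5 tested genes whose centred log2(TPM + 1) profile over the 6 libraries was nearest to the mean profile of the 9 members were Col5a2, Colec12, Cd53, Gm12840 and Igf1, at root mean square distances of 0.128, 0.140, 0.147, 0.149 and 0.153. Of the members, Ogn and Dcn were nearest to that mean profile, at 0.152 and 0.158, and Fmod and Omd farthest, at 0.605 and 0.568. Each member is itself part of that mean, so its distance is not comparable with those of the 5 other genes. The 6 libraries share their group difference in this measure, so the distances are a description.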

How the data were processed

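RNA was measured in heart ventricles in 3 control and 3 Cend1-KO libraries, extracted with TRIzol and made into libraries with a NEBNext Ultra kit, per the labels' protocols. CASAVA, fastp, HISAT2 2.0.5, featureCounts 1.5.0-p3 and mm10 are named, per the submitters' processing notes. The annotation is not given in the sources used here, nor the scaling step. Deposited values are TPM made by the authors, since they hold fractions and sum to 1000000 in each library. The depth is unknown, so no counting interval is given. Columns were matched to samples through their descriptions, since 2 Cend1-KO column numbers differ from the title's replicate.

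Of 57010 identifiers 52081 matched GENCODE M21, on the same build. Genes with at least 1 TPM in 3 libraries were fitted as log2(TPM + 1) with limma 3.58.1 in R 4.3.3, with trend and robust prior and no covariate, and were called at a Benjamini-Hochberg adjusted p under 0.05 over 13542 genes. The fit was tested on simulated data. Tables and plots used Python 3.11.15, pandas 2.3.3 and matplotlib 3.10.9.

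The members, gene lists, motifs and tests were chosen with earlier results of these data known. Named are all members, expressed relatives, neighbours in gene clusters, up to 4 genes of each list with the smallest p, leading and defining markers, and the 5 nearest profiles. Genes of marker lists named for a call or for being at or near 0, and Epyc, Kera and Optc, were chosen after their values were seen. Alternatives were 2 other scalings, removal of mitochondrial, nuclear-copy and hemoglobin genes, 2 filters, pseudocounts of 0.1 and 0.5 TPM, fits without robust prior or trend, a replicate block and each library left out. A further 3 were added after seeing the data.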

Additional observations from a re-analysis of the deposited data

How the results depend on the processing

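The number of all tested genes called was 230 (107 higher, 123 lower), and the number of members called higher was 3 of 9. Median-of-ratios scaling gave 1407 (827 higher, 580 lower) and 7, upper-quartile scaling 1434 (847 and 587) and 7, and removing mitochondrial, nuclear-copy and hemoglobin genes 1032 (755 and 277) and 6. With no filter 0 genes and 0 members were called by limma, with 2894 genes and 6 members at an unadjusted p under 0.05, and 30114 genes in the adjustment. A filter at 5 TPM gave 116 calls. Of the alternatives added after seeing the data, leaving out both libraries with lung transcripts gave 5539 calls (242 higher, 5297 lower) with 2 members among them, the same with median-of-ratios scaling 1593 and 6, and Xist as a covariate 538 and 5. With 1 Cend1-KO library left, its spread is assumed to be that of the controls. Leaving out 1 library gave 65 to 808 calls, 2 to 5 members called higher, and a median difference of the members of 0.87 to 1.38. The median was 1.56 with scaling and without both lung-transcript libraries.

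The paired fit, with the replicate number as a replicate block, gave 738 calls and 5 members. Deviations of same-numbered libraries from their group means correlated at -0.172, 0.0441 and -0.12. Libraries of unlike number correlated between -0.109 and 0.204. Deviations from a group mean are bound to one another, so these values cannot decide whether same-numbered libraries were paired.

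Aspn and Omd kept their calls in 18 of 19 alternatives, the exception being no filter (adjusted p = 0.223 and 0.202), and Lum in 12. At the 5 TPM filter Omd was tested only through the Cend1-KO libraries, where it is high, so its call there says nothing of stability. Without 1 library the difference of Fmod ran from -0.23 to 0.99 and that of Podn from -0.044 to 0.43, and Podn was at -0.14 without both lung-transcript libraries. The differences of the other 7 members kept their sign in all 19. The cause of these changes was not tested. Members near 1 TPM, Fmod, Podn and control Omd, are those whose log2(TPM + 1) differences are most reduced by the pseudocount.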
